A study of Mus musculus with 6 samples.

Results

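*Tcf7*, *Lef1*, *Bach2*, *Id3*, *Tox*, *Bcl6*, *Myb*, *Satb1*, and *Zeb1* encode 9 transcriptional regulators tied to the memory and stem-like states of T cells. They were chosen by name, and all 9 were found among the 57126 genes of the deposited count table. RNA was sequenced from CD8+ T cells of OT-I mice, which carry a transgenic receptor for an ovalbumin peptide on H-2Kb. The cells came from lymph nodes and spleens, were stimulated with nano-aAPCs (nanoparticles that carry the peptide on MHC class I together with anti-CD28), and were harvested on day 6. The 3 TEff samples were grown with IL-2 alone, at 5 ng/ml by the expansion methods. The 3 TRM-like samples had the same IL-2 with IL-15 at 100 ng/ml and TGF-β at 5 ng/ml. The methods name human IL-2 for the expansion and mouse IL-2 for RNA-seq. With no arm given IL-15 or TGF-β alone, the effects of the added cytokines cannot be told apart. Whether samples came from separate mice or cultures, and the age and sex of the mice, are not given in the sources used here, so the p-values measure only the spread between these samples, which may be technical.

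TCF-1 (from *Tcf7*) and LEF-1 bind the same DNA motif through an HMG box, and both can recruit β-catenin as a coactivator or TLE proteins as corepressors. They are needed in thymic development and are kept in naive, central memory, and stem-like CD8+ T cells, while terminal effector cells lose them. BACH2 pairs with small MAF proteins and restrains AP-1-driven effector genes, and BCL6 and Blimp-1 (from *Prdm1*) repress each other. ID3 and ID2 bind and inactivate E proteins, with ID3 linked to memory precursors and ID2 to effectors. MYB maintains self-renewal of stem-like CD8+ T cells, SATB1 organizes chromatin loops in naive T cells, ZEB1 and ZEB2 are opposed E-box repressors in memory and effector cells, and TOX is best known from chronically stimulated T cells.

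*Myb* was the only one of the 9 genes to pass the threshold, which asked for an adjusted p below 0.05 with a log2 fold change beyond 0.58 in size, and it was lower in the TRM-like samples. In the same edgeR test, 3.01% of the 26154 genes tested passed, and 1.48% passed with a lower level. *Lef1* and *Bach2* were also below the TEff range in every TRM-like sample and missed the threshold. Groups that did not overlap, with the TRM-like samples below, were seen for 3 of the 9 genes and for 9.71% of all genes tested. Without TRM-like replicate 3, *Myb*, *Lef1*, and *Bach2* all passed with a lower level, beside 14.0% of all genes passing in that fit and 7.67% passing with a lower and 6.38% with a higher level. When any other single sample was left out, *Myb* passed and *Lef1* and *Bach2* did not (edgeR adjusted p up to 0.21 and 0.336). The other 6 genes overlapped between the groups. *Tcf7*, *Bcl6*, and *Satb1* had widely spread values, whereas the 95% intervals of *Id3*, *Tox*, and *Zeb1* all lay between -0.36 and 0.52 on the log2 scale. All 9 genes passed the filter on low counts, and their median log2 fold change was -0.56, beside 0.02 over all genes tested.

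The total counts ranged from 18319013 to 21960760 in the TEff samples and from 21178756 to 23622621 in the TRM-like samples. Levels are given as CPM, each count divided by its TMM-normalized library size. Between 24229 and 24908 genes had a count in each of 4 samples, whereas 35130 had one in TRM-like replicate 1 and 35559 in replicate 2. Results that rest on TRM-like replicate 3 are also given without it. That fit keeps replicates 1 and 2, the 2 TRM-like samples with more genes detected. Summed over 9 CD8 T cell markers such as *Cd3e* and *Cd8a*, the level was 2579 to 2745 CPM in the TEff samples and 3026 to 4061 in the TRM-like samples, so the labelled cell type was present in every sample.

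*Myb* (ENSMUSG00000019982) lies on the minus strand of chromosome 10 of GRCm39, from 21000834 to 21036883. Its level was 61.5, 67.3, and 57.9 CPM in TEff replicates 1 to 3 and 7.07, 5.72, and 16.3 CPM in TRM-like replicates 1 to 3. Every TRM-like sample was thus far below every TEff sample, with replicate 3 the least so, at 2.55 times the mean of replicates 1 and 2. The means were 62.2 ± 4.77 and 9.69 ± 5.75 CPM (SD, n = 3), and the fitted level fell 6.43-fold (log2 fold change -2.69, standard error 0.35, 95% interval -3.47 to -1.90, edgeR adjusted p = 0.00434). The level rested on 131 to 353 counts in the TRM-like samples and 1047 to 1346 in the TEff samples. *Myb* passed in all 17 alternative settings, and without TRM-like replicate 3 its log2 fold change was -3.29 (edgeR adjusted p = 6.9e-09). In bulk RNA, fewer cells that express a gene and less RNA per cell cannot be told apart, here and for the genes below.

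The genes whose pattern over the 6 samples was most like that of *Myb* were *Adarb1*, an RNA-editing enzyme, *Ywhab*, a 14-3-3 protein, and *Map3k8*, a kinase of the ERK pathway. Pearson's r of log2 CPM was 0.998, 0.998, and 0.997, the highest among the 14822 genes that had 10 or more counts in all 6 samples. With 6 samples in 2 groups, r mainly records the gap between the groups together with the higher value in TRM-like replicate 3. *Ywhab* was at 103, 101, and 104 CPM in the TEff samples and 51.0, 48.6, and 70.5 in the TRM-like samples, a much smaller drop than that of *Myb*.

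*Lef1* (ENSMUSG00000027985; chromosome 3, plus strand, 130903919 to 131018005) was at 90.1, 128, and 87.7 CPM in the TEff samples and 56.5, 64.8, and 39.7 CPM in the TRM-like samples. The groups did not overlap, and TEff replicate 2 was the highest of the 6 and TRM-like replicate 3 the lowest. The log2 fold change was -0.93 (standard error 0.22, 95% interval -1.42 to -0.44), and the edgeR adjusted p of 0.0606 missed the threshold. Without TRM-like replicate 3 the difference was smaller, at -0.76, and passed (edgeR adjusted p = 0.00384). It was -0.73 without TEff replicate 2 (edgeR adjusted p = 0.21), which did not pass. Without both of these samples, a setting chosen after seeing the data, it was -0.56 (edgeR adjusted p = 3.2e-06). That value missed the threshold on size alone.

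*Bach2* (ENSMUSG00000040270; chromosome 4, plus strand, 32238714 to 32586108) had the same highest and lowest sample as *Lef1*, at a lower level. It was at 24.8, 42.5, and 23.0 CPM in the TEff samples and 18.4, 17.6, and 11.8 CPM in the TRM-like samples. Again the groups did not overlap, although only 4.63 CPM parted the lowest TEff sample from the highest TRM-like sample. The log2 fold change was -0.92 (standard error 0.26, 95% interval -1.51 to -0.32, edgeR adjusted p = 0.125). Without TRM-like replicate 3 it was -0.75 (edgeR adjusted p = 0.0256), which passed. Without TEff replicate 2 it was -0.59 (edgeR adjusted p = 0.336), which did not pass. With both samples left out, again a setting chosen after seeing the data, it was -0.42 (edgeR adjusted p = 0.00121) and missed on size alone.

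The sequences around the annotated starts of these 3 genes are shown because they are the genes whose groups did not overlap. Each is a RefSeq window of 280 bases on GRCm38.p6, 250 before the start and 30 from it on, read on the gene's strand. Capitals mark matches on either strand to any of the letters searched, and each motif was spelled as follows. The TCF/LEF motif was TCTTTGA or its shifted form CTTTGAT, which can overlap each other, or the variant CTTTGTT. The SMAD motif was GTCTAGAC or the shorter form CAGACA. The motif shared by AP-1 and BACH proteins was TGACTCA, that of ZEB and E proteins was CAGGTG or the variant CAGGTA, and that of STAT proteins was TTCCNNGAA.
*Myb*, chr10:21160955-21161234, minus strand: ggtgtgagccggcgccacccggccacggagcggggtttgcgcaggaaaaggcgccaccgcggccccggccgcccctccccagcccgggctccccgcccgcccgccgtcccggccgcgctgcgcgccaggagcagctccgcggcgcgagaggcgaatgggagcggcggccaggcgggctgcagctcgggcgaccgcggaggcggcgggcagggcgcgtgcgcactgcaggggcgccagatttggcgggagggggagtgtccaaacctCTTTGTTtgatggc
*Lef1*, chr3:131110047-131110326, plus strand: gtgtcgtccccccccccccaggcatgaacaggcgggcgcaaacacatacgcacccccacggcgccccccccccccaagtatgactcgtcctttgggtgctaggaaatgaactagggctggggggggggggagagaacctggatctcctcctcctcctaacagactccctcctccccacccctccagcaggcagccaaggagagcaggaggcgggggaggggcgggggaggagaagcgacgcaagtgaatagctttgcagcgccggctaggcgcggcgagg
*Bach2*, chr4:32417185-32417464, plus strand: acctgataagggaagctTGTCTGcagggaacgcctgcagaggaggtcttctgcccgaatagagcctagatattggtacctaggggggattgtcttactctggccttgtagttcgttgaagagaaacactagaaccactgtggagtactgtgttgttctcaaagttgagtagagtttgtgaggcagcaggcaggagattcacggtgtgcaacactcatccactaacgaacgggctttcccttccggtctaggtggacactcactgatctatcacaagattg

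The *Myb* window held 1 TCF/LEF match, CTTTGTT, 16 to 22 bases downstream of the start base, and no match to the other motifs. The *Lef1* window shown held no match. The *Bach2* window held 1 SMAD match, CAGACA read on the opposite strand, 228 to 233 bases before a start that lies 179022 bases inside the gene. Of 32851 RefSeq windows of the same length, 11.8% held a TCF/LEF match, 19.7% a SMAD match, 4.94% an AP-1 and BACH match, 27.7% a ZEB and E protein match, and 4.54% a STAT match. RefSeq gave 16 windows for 7 of the 9 genes and none for *Tox* and *Zeb1*. Over all the windows of a gene, a TCF/LEF match was found for 2 genes (*Myb* and *Satb1*), a SMAD match for 3 (*Lef1*, *Bach2*, and *Satb1*), a ZEB and E protein match for *Satb1*, a STAT match for *Bcl6*, and an AP-1 and BACH match for 0. These matches are letters in a window and were not tested against expression.

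**Figure D1:**
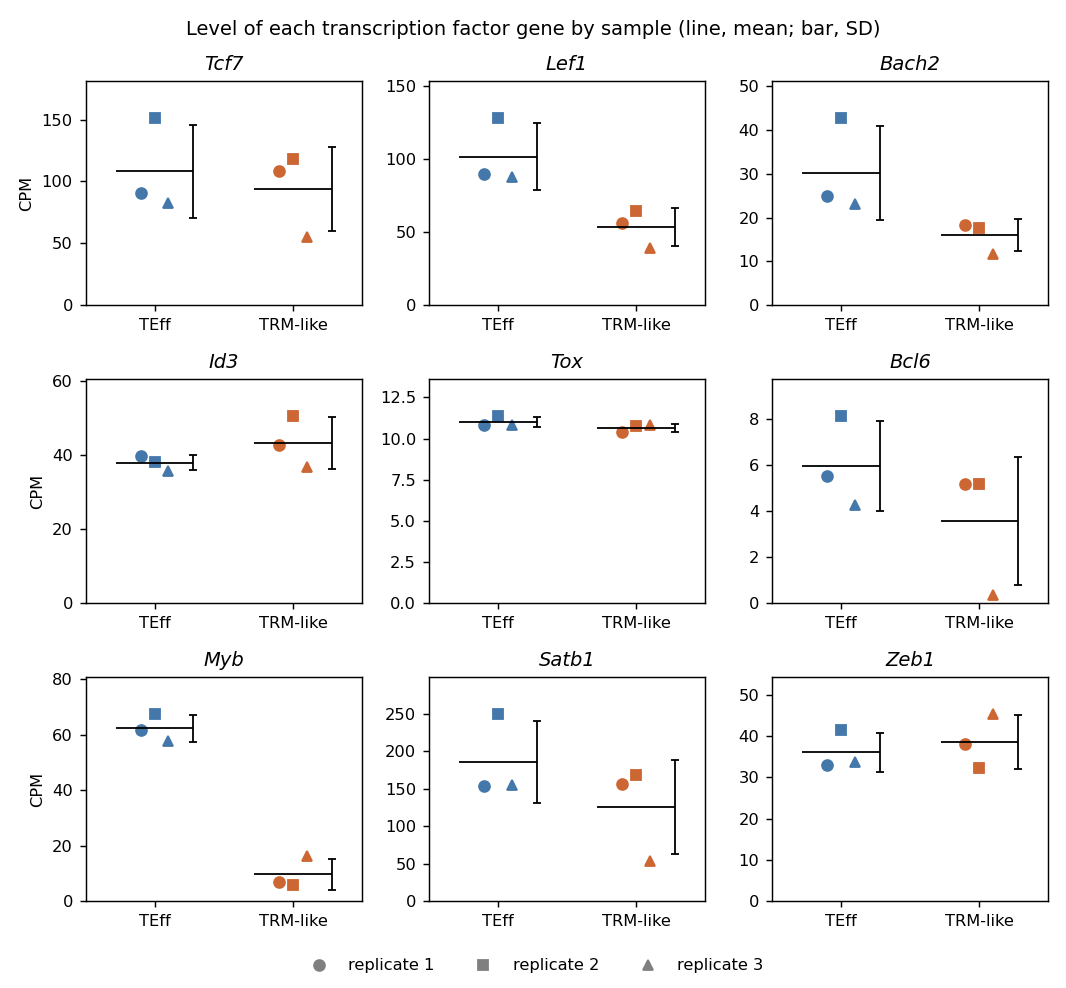
Level of each of the 9 genes in CPM (y axis, from 0, its own scale in each panel) in the 3 TEff samples (blue) and the 3 TRM-like samples (orange), with the mean as a line and the SD as a bar. *Myb* is at 57.9 to 67.3 CPM in TEff and 5.72 to 16.3 CPM in TRM-like, and the triangle of TRM-like replicate 3 lies lowest for *Tcf7*, *Lef1*, *Bach2*, *Bcl6*, and *Satb1*.

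*Tcf7* (ENSMUSG00000000782; chromosome 11, minus strand, 52143107 to 52174619) was at 90.9, 151, and 82.4 CPM in the TEff samples and 109, 118, and 55.1 CPM in the TRM-like samples. TRM-like replicates 1 and 2 lay inside the TEff range and replicate 3 below it. The log2 fold change was -0.20 (standard error 0.31, 95% interval -0.90 to 0.50, edgeR adjusted p = 0.821). It was above 0 when either outer sample was left out, at 0.11 without TEff replicate 2 and 0.06 without TRM-like replicate 3.

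*Satb1* (ENSMUSG00000023927; chromosome 17, minus strand, 52043114 to 52140622) was at 153, 249, and 155 CPM in the TEff samples and 156, 168, and 54.3 CPM in the TRM-like samples. It showed the same pair of outer samples, and TRM-like replicates 1 and 2 had 2.99 times the level of replicate 3. The log2 fold change was -0.56 (standard error 0.38, 95% interval -1.42 to 0.31, edgeR adjusted p = 0.568), and it was -0.20 without TRM-like replicate 3 and -0.29 without TEff replicate 2.

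*Bcl6* (ENSMUSG00000022508; chromosome 16, minus strand, 23783802 to 23807602) was the lowest of the 9 genes. It was at 5.53, 8.10, and 4.26 CPM in the TEff samples and 5.19, 5.16, and 0.369 CPM in the TRM-like samples. TRM-like replicates 1 and 2 lay inside the TEff range, and replicate 3, with 8 counts, was 14.0-fold below their mean. The log2 fold change of -0.74 (standard error 0.66, 95% interval -2.22 to 0.75, edgeR adjusted p = 0.675) rests on that sample, and without it the value was -0.22. The value was -0.45 without TEff replicate 2.

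*Id3* (ENSMUSG00000007872; chromosome 4, plus strand, 135870808 to 135873066) was at 39.8, 38.1, and 35.8 CPM in the TEff samples and 42.7, 50.4, and 36.7 CPM in the TRM-like samples, 2 of which were above every TEff sample. Its log2 fold change was 0.19 (standard error 0.15, 95% interval -0.14 to 0.52, edgeR adjusted p = 0.615), and it was 0.063 without TRM-like replicate 2 and 0.29 without TRM-like replicate 3 (edgeR adjusted p = 0.0986). *Tox* (ENSMUSG00000041272; chromosome 4, minus strand, 6686353 to 6991644) varied least of the 9, at 10.8, 11.3, and 10.8 CPM in the TEff samples and 10.4, 10.7, and 10.8 CPM in the TRM-like samples. The groups overlapped, and the 95% interval of its log2 fold change, -0.36 to 0.27 around -0.05, bounds a difference in either direction (edgeR adjusted p = 0.915). *Zeb1* (ENSMUSG00000024238; chromosome 18, plus strand, 5591851 to 5775467) was at 33.1, 41.5, and 33.7 CPM in the TEff samples and 38.1, 32.3, and 45.3 CPM in the TRM-like samples. The groups overlapped here too, and the log2 fold change was 0.09 (95% interval -0.27 to 0.46, edgeR adjusted p = 0.847) and -0.05 without TRM-like replicate 3. It was 0.21 without TEff replicate 2 and 0.20 without TRM-like replicate 2.

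**Figure D2:**
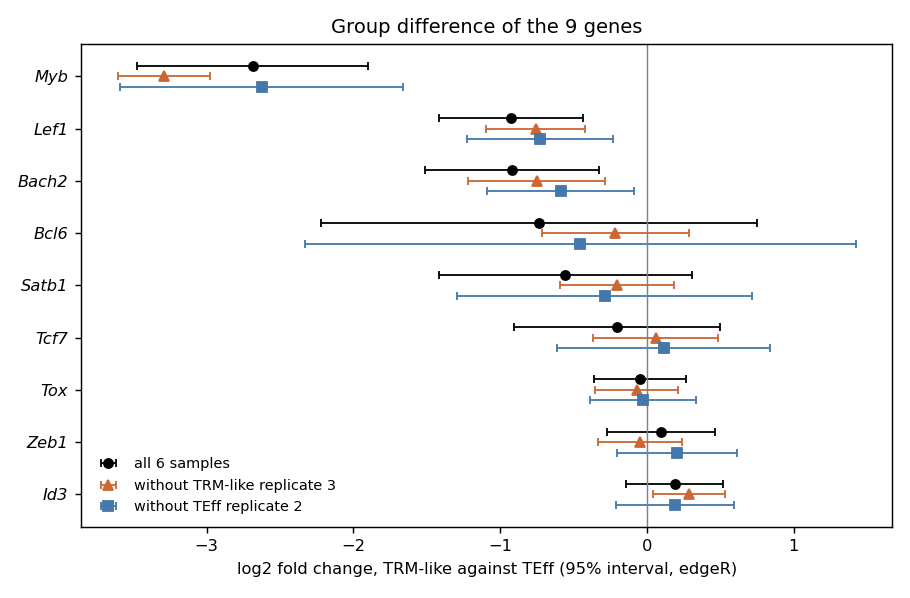
Log2 fold change of TRM-like against TEff (x axis) for each of the 9 genes (y axis) with its 95% interval, for all 6 samples (black) and with TRM-like replicate 3 (orange) or TEff replicate 2 (blue) left out. *Myb* lies at -2.69 with all samples and -3.29 without TRM-like replicate 3, and the point of *Tcf7* moves from -0.20 to 0.06 or 0.11.

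A pair of samples lay outermost for most of the genes. TEff replicate 2 was the highest TEff sample for 8 of the 9 genes, all but *Id3*, and the highest of all 6 samples for 7. It exceeded the mean of TEff replicates 1 and 3 by 1.78-fold for *Bach2*, 1.74-fold for *Tcf7*, 1.66-fold for *Bcl6*, 1.62-fold for *Satb1*, and 1.44-fold for *Lef1*. TRM-like replicate 3 was the lowest TRM-like sample for 6 genes, those 5 and *Id3*, and the lowest of all 6 samples for the 5. It was the highest TRM-like sample for *Tox*, *Myb*, and *Zeb1*. Over the 9 genes together, the summed level was 490 to 737 CPM in the TEff samples and 270 to 473 CPM in the TRM-like samples, and the extremes of 737 and 270 were these same samples. The share of all genes with these orders was not counted. Over 14822 genes, the deviations of TEff replicate 2 and TRM-like replicate 3 from their group means had a correlation of -0.491. Their opposition was thus not confined to the 9 genes. Which feature of these samples goes with the levels was not tested.

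Levels of different genes were compared as CPM per kilobase of the deposited gene length. In the TEff samples *Tcf7* was the highest, at 36.7 ± 12.7 CPM per kilobase (SD, n = 3), followed by *Id3* at 29.7 ± 1.58 and *Lef1* at 29.1 ± 6.45. These 3 genes overlapped in their sample values. *Myb* at 16.5 ± 1.27 and *Satb1* at 16.2 ± 4.79 came next, overlapping with each other and below *Lef1* in every sample. *Zeb1* at 6.22 ± 0.81 stood apart from its neighbours, *Bach2* at 3.39 ± 1.21 overlapped with *Tox* at 2.78 ± 0.07, and *Bcl6* at 1.69 ± 0.56 was below both.

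In the TRM-like samples the order by CPM per kilobase was *Id3* at 33.8 ± 5.40, *Tcf7* at 31.9 ± 11.5, *Lef1* at 15.3 ± 3.65, *Satb1* at 11.0 ± 5.45, and *Zeb1* at 6.64 ± 1.12 (SD, n = 3). *Tox* at 2.69 ± 0.06, *Myb* at 2.57 ± 1.52, *Bach2* at 1.79 ± 0.41, and *Bcl6* at 1.01 ± 0.79 followed. *Myb* was thus 4th in the TEff order and 7th in the TRM-like order. Among neighbours in the TRM-like order, the sample values parted only *Tcf7* from *Lef1* and *Zeb1* from *Tox*. Against 1382 olfactory receptor genes, which T cells do not use, the lowest gene, *Bcl6*, was 45.4-fold above their level in TRM-like replicate 3 and 57.4- to 460-fold above it in the others. That olfactory level was 0.0235 and 0.0255 CPM per kilobase in TRM-like replicates 1 and 2 and at most 0.0050 in the other samples.

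**Figure D3:**
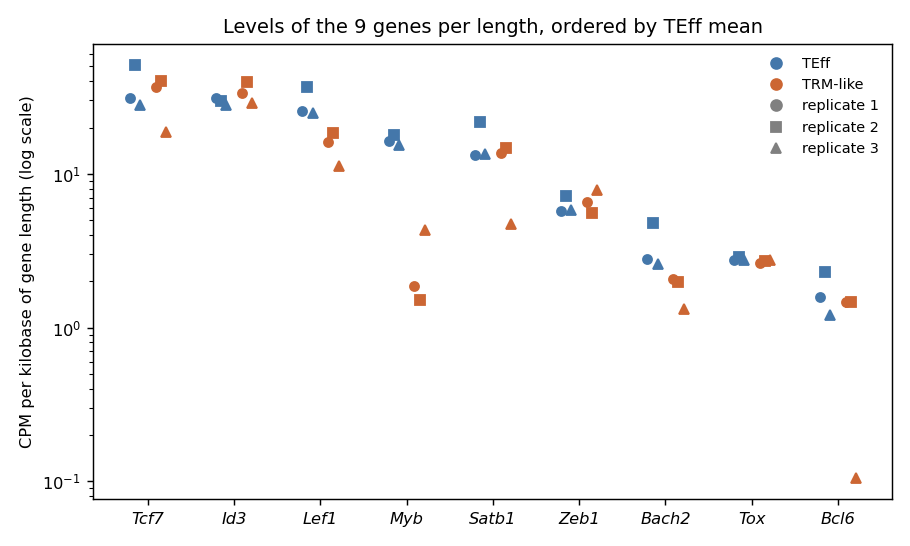
CPM per kilobase of gene length (y axis, log scale) for each of the 9 genes (x axis, ordered by the TEff mean), with TEff samples in blue and TRM-like samples in orange and the replicate number as the symbol. *Myb* falls from 15.3 to 17.9 in TEff to 1.52 to 4.32 in TRM-like, and *Bcl6* in TRM-like replicate 3 is alone near 0.105.

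A set of 6 ratios within a sample was fixed, each of a gene to a relative or antagonist, as log2 of CPM plus 0.5. Such ratios depend on the scaling between samples only through the 0.5 CPM added, which matters for genes at low levels. With 3 samples against 3, the exact two-sided permutation test cannot go below 0.1, so none of the 6 could reach 0.05. The ratio of *Tcf7* to *Lef1*, the factors that share a motif, was 0.01, 0.24, and -0.09 in the TEff samples and 0.94, 0.86, and 0.47 in the TRM-like samples. Every TRM-like sample thus held more *Tcf7* for its *Lef1*, with a difference of 0.70 (exact permutation p = 0.1, adjusted over the 6 ratios 0.2). TRM-like replicate 3, where both genes were low, kept this order. The ratio of *Bach2* to its relative *Bach1* was 0.28, 0.69, and 0.15 against -0.15, -0.20, and -0.81, lower in every TRM-like sample by 0.76 (exact permutation p = 0.1, adjusted 0.2). *Bach1* itself overlapped between the groups, at 20.3 to 26.1 CPM against 20.4 to 20.9.

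The ratio of *Zeb1* to *Zeb2* was 3.44, 4.38, and 3.78 in the TEff samples and 4.86, 4.40, and 6.27 in the TRM-like samples. The groups parted by a narrow margin, and the difference was 1.31 (exact permutation p = 0.1, adjusted 0.2). *Zeb2* was low throughout, at 2.61, 1.52, and 1.99 CPM against 0.829, 1.05, and 0.0922 (log2 fold change -1.62, edgeR adjusted p = 0.223), so this ratio depends on the 0.5 CPM added. With 2 CPM added the difference was 0.70 and the groups overlapped. The ratio of *Id3* to *Id2* overlapped between the groups, with a difference of 0.24 (exact permutation p = 0.2, adjusted 0.24). *Tox2*, with 0, 0, and 0 counts in the TEff samples and 1, 4, and 0 in the TRM-like samples, was not tested. The difference in the ratio of *Tox* to it, -0.23 (exact permutation p = 0.2, adjusted 0.24), rests largely on these few counts and was -0.09 with 2 CPM added. The ratio of *Bcl6* to *Prdm1* was -1.57, -1.05, and -1.86 against -1.20, -1.21, and -3.87 (difference -0.60, exact permutation p = 0.8, adjusted 0.8), and the difference was 0.29 without TRM-like replicate 3. *Prdm1* was at 16.8 to 17.5 CPM in the TEff samples and 12.2 to 12.6 in the TRM-like samples, which did not overlap (log2 fold change -0.47, edgeR adjusted p = 0.109).

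Relatives of the 9 genes from the same families included 10 tested genes of 14, of which 0 rose and 0 fell. In the same edgeR test, 1.52% of all genes tested rose and 1.48% fell, and the unadjusted p was below 0.05 for 1 of the family genes, *Zeb2*. DESeq2 and limma-voom also called 0. Their median log2 fold change was 0.00. *Tcf7l2*, *Id4*, *Tox2*, and *Tox3* had too few counts to be tested. *Mybl2*, the proliferation-linked relative of *Myb*, was at 37.5, 20.6, and 32.5 CPM in the TEff samples and 10.7, 11.3, and 34.1 CPM in the TRM-like samples. TRM-like replicates 1 and 2 were below the TEff range and replicate 3 inside it (log2 fold change -0.69, edgeR adjusted p = 0.529), and without replicate 3 the log2 fold change was -1.47 (edgeR adjusted p = 0.0003). That setting also passed *Zeb2*, at -1.13 (edgeR adjusted p = 0.0262), so that 0 relatives rose and 2 fell. *Mybl2* and *Zeb2* did not pass when any other single sample was left out. Over all genes in the fit without TRM-like replicate 3, 6.38% rose and 7.67% fell.

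Proteins that work with these factors were covered by 24 genes, among them coactivators, corepressors, E proteins, and small MAF proteins. Of these, 1 rose and 0 fell, beside 1.52% and 1.48% of all genes tested, with a median log2 fold change of 0.02. *Maff*, a small MAF protein of the kind that pairs with BACH2, rose from 1.05, 1.47, and 1.44 CPM to 2.88, 3.19, and 2.95 CPM (log2 fold change 1.19, edgeR adjusted p = 0.0362). *Mafk*, from the same family, was at 31.5, 27.6, and 27.0 CPM against 43.5, 49.2, and 37.4 (log2 fold change 0.60, edgeR adjusted p = 0.0701). *Tle3*, a corepressor that TCF-1 and LEF-1 recruit, was at 30.3, 51.5, and 32.2 CPM against 81.2, 82.8, and 54.0 (log2 fold change 0.94, edgeR adjusted p = 0.0867). All 3 were above the TEff range in every TRM-like sample, as were 10.6% of all genes tested. Without TRM-like replicate 3 all 3 passed, so that 3 partners rose and 0 fell, beside 6.38% and 7.67% of all genes. *Maff* missed the threshold when any of the other 5 samples was left out, with a log2 fold change of 1.05 to 1.28 over the 6 settings and an edgeR adjusted p of up to 0.208. *Mafk* and *Tle3* also missed it when any of these 5 was left out.

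Of 28 genes used as markers of naive and stem-like memory cells, 4 rose and 7 fell, beside 1.52% and 1.48% of all genes tested. The median log2 fold change of the 28 was -0.36. *Slamf6*, a surface marker of stem-like CD8+ T cells, fell from 48.8, 49.5, and 42.7 CPM to 3.97, 3.54, and 7.15 CPM (log2 fold change -3.27, edgeR adjusted p = 0.000348). *Runx1*, a transcription factor of T cell development, fell by 2.90 on the log2 scale (edgeR adjusted p = 0.00301). *S1pr1*, the receptor for exit from tissues, fell by 2.33 on the log2 scale (edgeR adjusted p = 0.00686), *Eomes*, a T-box factor of memory and effector cells, by 2.09 (edgeR adjusted p = 0.00308), and *Cxcr3*, a chemokine receptor, by 1.21 (edgeR adjusted p = 0.00543). In contrast, *Igfbp4* rose by 3.17 (edgeR adjusted p = 0.00661) and *Ly6a*, which encodes Sca-1, by 1.38 (edgeR adjusted p = 0.00758). *Slamf6* and *S1pr1* shared with *Myb* that TRM-like replicate 3 was the highest of its group, whereas *Eomes*, *Cxcr3*, and *Runx1* were lowest there. *Igfbp4* missed the threshold without any one of the 3 TEff samples (edgeR adjusted p up to 0.0642) and *Ly6a* without TEff replicate 1 or 3 (up to 0.0723). Without TRM-like replicate 3, 5 of the 28 rose and 11 fell, beside 6.38% and 7.67% of all genes in that fit. The marker list therefore moved in both directions, and its members did not share 1 pattern over the TRM-like samples.

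Of 20 genes of effector differentiation, 2 rose and 3 fell, beside 1.52% and 1.48% of all genes tested. The median log2 fold change of the 20 was -0.31. *Prf1* (perforin), *Havcr2* (TIM-3), and *Gzmb* (granzyme B) fell, with log2 fold changes of -2.67, -2.38, and -1.91 and edgeR adjusted p-values of 0.000438, 0.000209, and 0.0013. *Gzmb* was at 2056, 1454, and 2318 CPM in the TEff samples and 519, 517, and 513 CPM in the TRM-like samples. *Irf8*, an interferon regulatory factor, rose by 1.81 (edgeR adjusted p = 0.0051). *Cx3cr1*, a chemokine receptor of circulating effector cells, rose by 3.79 (edgeR adjusted p = 0.0254), from 0.503, 0.557, and 0.663 CPM to 11.4, 11.0, and 1.43 CPM, and missed the threshold without any one of the samples other than TRM-like replicate 3 (edgeR adjusted p up to 0.156). Without TRM-like replicate 3, 3 of the 20 rose and 4 fell, beside 6.38% and 7.67% of all genes in that fit.

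**Figure D4:**
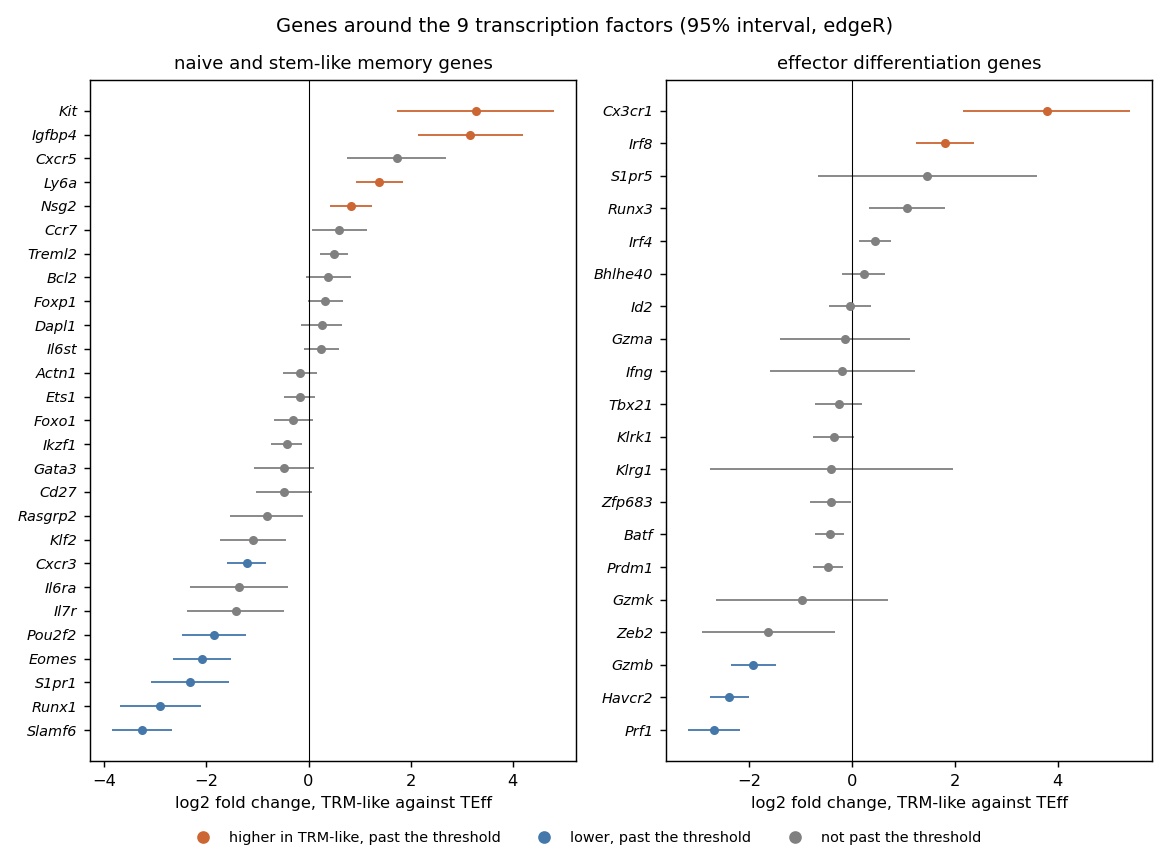
Log2 fold change of TRM-like against TEff (x axis) with its 95% interval for 27 of the 28 naive and stem-like memory genes (left) and the 20 effector differentiation genes (right), with genes past the threshold in orange (higher in TRM-like) or blue (lower). *Slamf6* lies lowest on the left at -3.27, and *Prf1* and *Havcr2* on the right at -2.67 and -2.38, and both lists also hold genes that rose.

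β-catenin acts through TCF-1 and LEF-1, and 14 genes of the pathway's machinery and feedback were listed, 12 of them tested. None rose or fell by the edgeR test, 0 of 12, beside 1.52% and 1.48% of all genes tested. The unadjusted p was below 0.05 for 1, DESeq2 and limma-voom called 0, and the median log2 fold change was 0.16. *Axin2*, a feedback target of the pathway, was at 8.55, 9.16, and 8.07 CPM in the TEff samples and 5.02, 4.67, and 7.33 CPM in the TRM-like samples. The groups did not overlap (log2 fold change -0.60, edgeR adjusted p = 0.214). Without TRM-like replicate 3 the value was -0.84 (edgeR adjusted p = 0.00221). *Axin2* was the 1 gene of the list to pass there, beside 7.67% of all genes passing with a lower level. It did not pass when any other single sample was left out. *Gsk3b*, the kinase that marks β-catenin for degradation, was at 36.8, 47.1, and 41.2 CPM against 51.3, 44.8, and 51.3 (log2 fold change 0.24, edgeR adjusted p = 0.501). *Nkd1*, a feedback inhibitor, was at no more than 0.349 CPM in any sample.

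The annotation places 29 other genes across the 9 loci, 19 of which were in the count table and 17 tested. Of these 17, 0 passed in the edgeR test, beside 3.01% of all genes tested. The unadjusted p was below 0.05 for 7, and the share of all genes below it is not given here. DESeq2 called 5 and limma-voom 0, beside 1264 and 737 of all 26154 genes. Without TRM-like replicate 3 edgeR called 5, 1 higher and 4 lower, beside 6.38% and 7.67% of all genes in that fit. The 1 was *Gm56627*, and the 4 were *Gm26577*, *Bach2it1*, *Gm42449*, and *Gm36931*. Leaving out any other single sample passed none of these but *Gm36931*, which passed without TRM-like replicate 1. The library kit marks strand, but the strand setting of the counting is not given in the sources used here, so reads of opposite strands may be shared. Genes on the opposite strand amounted to at most 4.13% of the summed counts of their partner, for *Zeb1os1* at the *Zeb1* locus. *Gm26577*, antisense to *Myb*, had 13, 22, and 18 counts in the TEff samples and 0, 3, and 5 in the TRM-like samples (log2 fold change -2.85, edgeR adjusted p = 0.0665), so it was low where *Myb* was low. *Lef1os1*, antisense to *Lef1*, was at 0.960, 1.47, and 0.995 CPM against 0.698, 0.393, and 0.184 (log2 fold change -1.40, edgeR adjusted p = 0.193).

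Tested same-strand genes inside *Bach2*, *Lef1*, *Satb1*, and *Bcl6* were counted as genes of their own. All but *Gm36931* shared no exon base with their hosts. *Bach2it1*, inside *Bach2* with no shared exon base, was at 3.25, 4.81, and 3.48 CPM in the TEff samples and 1.92, 1.83, and 2.12 CPM in the TRM-like samples (log2 fold change -0.97, edgeR adjusted p = 0.0739). Its groups did not overlap, nor did those of *Gm42449* inside *Lef1*, at 2.01, 3.04, and 1.55 CPM against 1.09, 1.00, and 0.738 (log2 fold change -1.21, edgeR adjusted p = 0.109). Their log2 fold changes were near those of the host exons, -0.92 for *Bach2* and -0.93 for *Lef1*, and the difference was not tested. The 5 same-strand genes inside *Satb1* had log2 fold changes of -1.24 to -0.87, beside -0.56 for *Satb1*. For *Gm36931*, the one that shares 156 exon bases with *Satb1*, the level was 12.4, 20.9, and 12.0 CPM against 8.98, 5.72, and 4.43 (log2 fold change -1.24, edgeR adjusted p = 0.0714), with the groups apart although those of *Satb1* overlapped. *Gm56627*, inside *Bcl6*, went the other way from its host, with 3, 5, and 6 counts against 18, 25, and 3 (log2 fold change 1.49, edgeR adjusted p = 0.376). Without TRM-like replicate 3 its log2 fold change was 1.96 (edgeR adjusted p = 0.0102).

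Markers of other cells summed to far less than the CD8 T cell markers. Some of these sums were above the levels of *Bach2*, *Tox*, or *Bcl6* in the same samples. The B cell list, of which 0 of 7 tested genes passed, summed to 8.50 to 10.6 CPM in the TEff samples and 8.30 to 14.1 in the TRM-like samples, and *Ms4a1* and *Pax5* had too few counts to be tested. B cells use *Bach2* and *Bcl6* too. The myeloid list (0 of 7 passed) summed to 5.94 to 8.40 CPM in the TEff samples, to 28.4 and 31.1 in TRM-like replicates 1 and 2, and to 4.33 in replicate 3, mostly from *Fcer1g* and *Tyrobp*, which NK cells also express, with *C1qa* and *S100a8* at 0 in every sample. Dendritic cell markers (0 of 5 passed) summed to 6.08 to 7.39 CPM against 3.23 to 8.46, NK cell markers (0 of 4 passed) to 9.97 to 22.3 against 0.0922 to 8.98, mostly *Klrb1c*, and erythroid markers to no more than 0.654. The CD4 T cell and Treg list summed to 35.9 to 41.5 CPM against 18.4 to 26.0, nearly all of it *Zbtb7b*, which fell (log2 fold change -0.82, edgeR adjusted p = 0.0335), while *Cd4* was at no more than 0.111 CPM in any sample. Over all genes tested 3.01% passed, so 0 in lists this short does not show that the markers were unchanged. At an unadjusted p below 0.05 the B cell, myeloid, dendritic cell, and NK cell lists held 2, 4, 2, and 0 genes. DESeq2 called 1 myeloid gene and limma-voom called 0 in all 4 lists, beside 1264 and 737 of all 26154 genes. Without TRM-like replicate 3, edgeR called 1 B cell, 3 myeloid, and 1 dendritic cell gene higher and 1 NK cell gene lower. In that fit 6.38% of all genes were called higher and 7.67% lower. Among the CD8 T cell markers *Cd8a* rose by 1.14 (edgeR adjusted p = 0.00219) and *Cd5* fell by 0.88 on the log2 scale (edgeR adjusted p = 0.0131). The part of these cell types in the levels of the 9 genes was not tested.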

How the data were processed

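RNA-seq was done on 6 samples of OT-I CD8+ T cells, 3 TEff and 3 TRM-like, grouped by the sample labels. According to the methods, the authors made libraries with a stranded total RNA kit, trimmed reads with Cutadapt 4.8, and mapped and counted them with Rsubread on a GENCODE annotation of GRCm39. They deposited raw counts per gene with gene lengths, without normalization. The strand setting and the handling of reads that map to several places are not given in the sources used here. The submitters' processing notes also name DESeq2 1.40.2, and the methods mention a batch effect without naming the batch, so none was removed.

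Coordinates were read from GENCODE on GRCm39, which held 56620 of the 57126 genes, and promoter windows from RefSeq on GRCm38.p6, with no conversion between builds. Counts were tested with edgeR 4.0.16 in R 4.3.3 (glmQLFit and glmQLFTest, TMM normalization) on the 26154 genes that had 1 or more counts in 3 or more samples, with Benjamini-Hochberg adjustment over all of them. Standard errors were taken as the absolute log2 fold change over the square root of F. The test was also run on simulated counts without sample-wide deviations, so that run does not cover the outer samples described above. Alternatives were DESeq2 1.42.0, limma-voom (limma 3.58.1), DESeq2's size factors, library totals alone, no filter, 10 or more counts in all samples, filterByExpr, glmTreat with a fold of 1.5, the adjusted p alone, leaving out each sample, and the replicate block. Leaving out TEff replicate 2 and TRM-like replicate 3 together was chosen after seeing the data. At these depths 3 counts are 0.131 to 0.166 CPM.

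The members and the gene lists were chosen with earlier results of these data known. Named genes were the 9 members, in each list those past the threshold and the 3 with the smallest p (at most 8), the 6 counterparts, genes overlapping a member, and the 3 genes most like a member past the threshold. Of these, 2 list genes are counted in their lists but not reported here.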

Additional observations from a re-analysis of the deposited data

How the results depend on the processing

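Of the 9 genes, 1 passed the threshold, and 3 passed with DESeq2 or with no filter on low counts (*Lef1* and *Bach2* beside *Myb*), 5 with the replicate block, and 1 to 3 when 1 sample was left out. *Myb* passed in all 17 alternatives, *Lef1* and *Bach2* in 4 each, *Bcl6* and *Satb1* only with the block, and *Tcf7*, *Id3*, *Tox*, and *Zeb1* in 0. The block fit had infinite prior degrees of freedom, so variance was shared across genes. With the block and with no filter, the standard error of *Bcl6* was 0.26 and 0.25, against 0.66 in the main test. Those of *Id3*, *Tox*, and *Zeb1* were larger than in the main test. Passes in these settings carry less weight. For *Bcl6* the filter of at least 10 counts in every sample could not be run, since TRM-like replicate 3 had 8. With 1 sample left out, the log2 fold change ranged from -3.29 to -2.42 for *Myb*, -0.41 to 0.11 for *Tcf7*, -0.046 to 0.21 for *Zeb1*, -0.14 to 0.13 for *Id2*, and -0.18 to 0.0064 for *Bach1*. Without TEff replicate 2 and TRM-like replicate 3 together, an alternative chosen after seeing the data, *Tcf7* was at 0.37, *Bcl6* at 0.058, *Satb1* at 0.065, *Id2* at 0.13, and *A630014C17Rik* at 0.12, all with the sign changed. The cause was not tested.

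Over all genes, 786 passed, and 1264 with DESeq2, 1868 with no filter, 339 with glmTreat, 263 to 3579 with 1 sample left out (the most without TRM-like replicate 3), and 4333 with both outer samples left out. Of the 92 genes tested in the 5 lists, 17 passed, and 28 with no filter, 11 to 28 with 1 sample left out, and 33 with both left out. The replicate number as a block gave 2034 genes over the table and 27 in the lists. Same-numbered samples had correlations of -0.292, 0.309, and 0.388 in their deviations from the group means over 14822 genes. Over all pairs the highest, 0.518, was between TEff replicate 2 and TRM-like replicate 1. The lowest, -0.491, was between TEff replicate 2 and TRM-like replicate 3. With 3 samples a group these values cannot decide whether the numbers pair the samples, and the sample labels do not say. The block is therefore given only here, as an alternative. Each of the 6 ratio differences moved by less than the SD pooled over both groups, although that of *Bcl6* to *Prdm1* turned from -0.60 to 0.29 without TRM-like replicate 3 and that of *Zeb1* to *Zeb2* went from 1.31 to 0.70 with 2 CPM added. With 3 samples a group, small differences were not detectable, least of all where the samples spread widely, as for *Tcf7* and *Satb1* (standard errors 0.31 and 0.38). *Bcl6* also had only 8 counts in TRM-like replicate 3.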
